A study of Mus musculus with 6 samples.

Results

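The haematopoietic stem cell (HSC) and the multipotent progenitor MPP4, were compared in wild-type mouse bone marrow. The comparison used 6 of the 36 libraries of the series, 3 of HSC and 3 of MPP4, chosen by the population that each deposited table is named for. Both populations were sorted as LSK cells, which lack mature lineage markers and carry Sca-1 and cKit. HSC lacked CD34, Flt3 and CD48 and carried CD150, whereas MPP4 carried CD34, Flt3 and CD48 and lacked CD150. Each sort held 15 cells, and CEL-Seq2, which barcodes a sample's RNA and reads the 3′ ends of transcripts, gave the libraries. The other genotype of the series is heterozygous for Mof (written Mof -/+ in the labels), a histone acetyltransferase gene, and its 3 HSC and 3 MPP4 libraries served as a second set for the same contrast. The labels give neither strain nor age, and do not say that the 3 libraries of a population came from separate mice, so every p measures the spread between libraries, which may be technical.

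HSC are the rare, mostly quiescent cells that renew themselves and maintain all blood lineages. MPP4 cells divide more, have lost long-term self-renewal and are primed for the lymphoid lineages; they begin to transcribe genes of the recombination machinery and of early B and T cells. The surrogate light chain, made of the Vpreb1 and Igll1 proteins, pairs with the immunoglobulin heavy chain in the pre-B cell receptor, and Dntt encodes terminal deoxynucleotidyl transferase, which adds bases at the joints of recombined receptor genes. Ifitm1 encodes an interferon-inducible membrane protein whose transcript is also found in stem cells.

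The promoters of these 4 genes are shown because they are the genes called between replicates 1 and 2 of the 2 populations, with Igll1 as the partner of Vpreb1. Marker genes, Ifitm1 and Dntt among them, decided which replicates were kept, as described below. Each sequence is the 250 bases before the RefSeq start (build GRCm38.p6), read 5′ to 3′ on the gene's strand, and capitals mark matches to 5 motifs on either strand.
Vpreb1, chr16:16869256-16869505, minus strand: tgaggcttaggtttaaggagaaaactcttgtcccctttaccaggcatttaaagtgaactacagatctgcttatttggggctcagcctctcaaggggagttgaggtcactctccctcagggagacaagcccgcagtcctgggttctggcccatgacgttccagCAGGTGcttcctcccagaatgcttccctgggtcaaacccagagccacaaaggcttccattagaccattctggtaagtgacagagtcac
Igll1, chr16:16863986-16864235, minus strand: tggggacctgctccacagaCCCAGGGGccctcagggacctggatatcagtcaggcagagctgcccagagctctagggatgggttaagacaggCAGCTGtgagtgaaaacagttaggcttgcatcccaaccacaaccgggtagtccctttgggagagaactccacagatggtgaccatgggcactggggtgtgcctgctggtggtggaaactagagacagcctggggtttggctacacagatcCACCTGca
Dntt, chr19:41029025-41029274, plus strand: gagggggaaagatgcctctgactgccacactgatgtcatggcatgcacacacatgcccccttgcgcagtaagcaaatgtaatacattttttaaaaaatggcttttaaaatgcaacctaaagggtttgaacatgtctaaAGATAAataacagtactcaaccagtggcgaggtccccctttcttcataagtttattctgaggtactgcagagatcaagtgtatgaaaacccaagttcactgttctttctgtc
Ifitm1, chr7:140967826-140968075, plus strand: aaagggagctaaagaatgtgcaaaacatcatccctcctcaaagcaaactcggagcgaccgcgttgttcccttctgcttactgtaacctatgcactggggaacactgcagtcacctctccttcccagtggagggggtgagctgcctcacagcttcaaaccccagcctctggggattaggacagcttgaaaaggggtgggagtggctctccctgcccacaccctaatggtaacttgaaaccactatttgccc
Vpreb1 and Igll1 start 5.27 kb apart on the same strand of chromosome 16. The E-box CAGGTG occurred once in the Vpreb1 window and once in that of Igll1, and 17.2% of 32851 RefSeq promoter windows of this length hold it. The E-box CAGCTG (13.0% of windows) and the EBF core CCCNNGGG (11.8%) each occurred once in the Igll1 window. The GATA motif AGATAA (9.99%) occurred once in the Dntt window. The Ifitm1 window held none of these and no interferon element core AAANNGAAA (9.37%). The matches describe letters only, and none of the motifs overlapped another in these windows.

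The 6 libraries held 18040 to 38295 recovered counts and 4624 to 7102 genes, so that 1 count was worth 26.1 to 55.4 CPM (counts-per-million of the library total). MPP4 replicate 3 was the shallowest. A group without any count of a gene has an upper limit of 3 counts over its 3 libraries, 31.7 CPM in HSC and 31.8 CPM in MPP4, for counting error only. HSC and MPP4 came from different sequencing pools, and MPP4 shared its pool with MPP2 and MPP3, so population and pool cannot be told apart. The same holds for the heterozygous libraries, whose HSC and MPP4 also came from different pools, and for any average over both genotypes. In bulk samples of a few cells, fewer cells of a type and less RNA per cell cannot be told apart either.

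One library of each population went against its label in part of its markers. The library labelled HSC replicate 3 held 491 CPM summed over 30 stem cell genes, where replicates 1 and 2 held 9042 and 7523 CPM and the MPP4 libraries held 1306, 1075 and 998 CPM. Hlf, Meis1, Mecom, Gata2, Angpt1 and Ifitm1 were all at 0 in it. Its pre-B receptor and early B lineage genes summed to 6412 CPM, between the 5155 and 7599 CPM of MPP4 replicates 3 and 1. Over the genes tested it was nearer in rank to MPP4 replicates 1 and 2 (Spearman correlation across genes 0.452 and 0.501) than to HSC replicates 1 and 2 (0.325 and 0.442). The ranks set it apart only weakly, since HSC replicate 2 was about as near to MPP4 replicates 1 and 2 (0.429 and 0.455) as to HSC replicate 1 (0.464). The library labelled MPP4 replicate 3 had 0 counts of Flt3, Dntt, Kit and Cd34, of which Flt3, cKit and CD34 were gated as present. It held 149501 CPM of erythroid genes, nearly all of it the β-globin entry Beta-s, and 35698 CPM of mature neutrophil genes. Other lists went with its label, with 998 CPM of stem cell genes and 5155 CPM of early B lineage genes. Its rank correlations were low throughout: 0.245, 0.296 and 0.329 with HSC replicates 1 to 3, and 0.286 and 0.345 with MPP4 replicates 1 and 2. It had only 18040 counts in all. Results are given for all 6 libraries and again for replicates 1 and 2 of each population (HSC replicate 3 and MPP4 replicate 3 left out). Because marker genes decided which libraries were left out, the second set of values is a description for stem cell and early B genes and lends them no separate support.

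**Figure D1:**
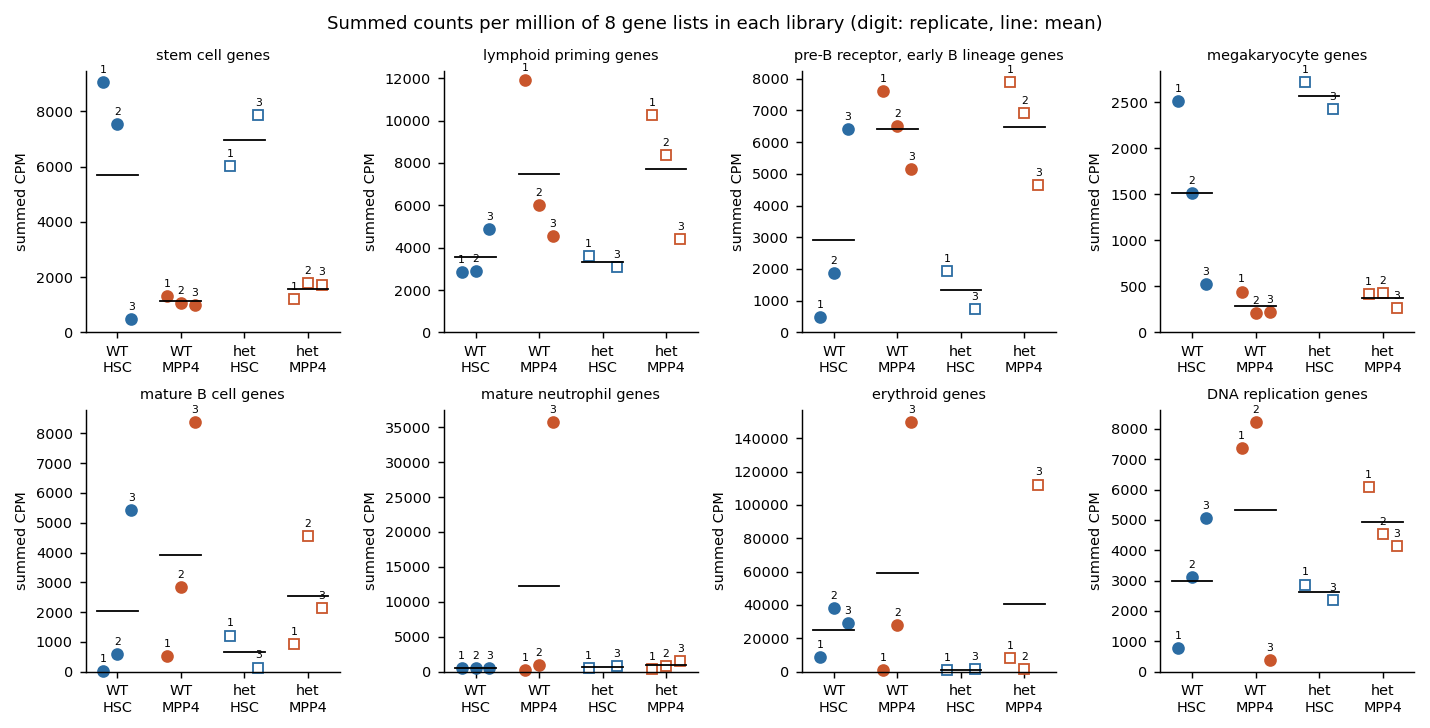
Summed CPM of 8 gene lists (y axes, linear from 0) in wild-type (WT, filled circles) and Mof heterozygous (het, open squares) libraries; digits are replicate numbers and lines are means. Heterozygous HSC replicate 2, with 1577 counts, is not drawn. WT HSC replicate 3 sits at 491 CPM of stem cell genes, below every MPP4 library, and WT MPP4 replicate 3 holds 35698 CPM of mature neutrophil genes.

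Across all 6 libraries, limma called 1 of 5571 genes (0.018%) at an adjusted p under 0.05, the ribosomal RNA precursor Rn45s, and 324 genes had an unadjusted p under 0.05. Rn45s held 49096, 23423 and 40008 CPM in HSC replicates 1 to 3 and 4283, 9937 and 10310.4 CPM in MPP4. All 3 HSC libraries lay above all 3 MPP4 libraries, with means of 37509 ± 13018 and 8177 ± 3377 CPM (SD, n = 3). Rn45s was 4.59-fold higher in HSC, and fell by 2.23 on the log2 scale from HSC to MPP4 (SE 0.30, limma adjusted p = 0.000531). Leaving out HSC replicate 1 ended this call, as did leaving out HSC replicate 3 (limma adjusted p = 0.112), and without both replicates 3 the difference was -2.37 (limma adjusted p = 0.269). Libraries of the MPP pool that were not MPP4 held more: 20423 to 45204 CPM in MPP2 and 28072 to 118669 CPM in MPP3. The heterozygous libraries repeated the order, with 41814 and 38060.2 CPM in HSC replicates 1 and 3 against 12867, 10373 and 10487 CPM in MPP4. Rn45s comes from many near-identical ribosomal DNA copies, so its count depends on the treatment of multiply mapping reads, which no label states. The count test called 0 of 464 genes (edgeR quasi-likelihood, 38 at an unadjusted p under 0.05).

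**Figure D2:**
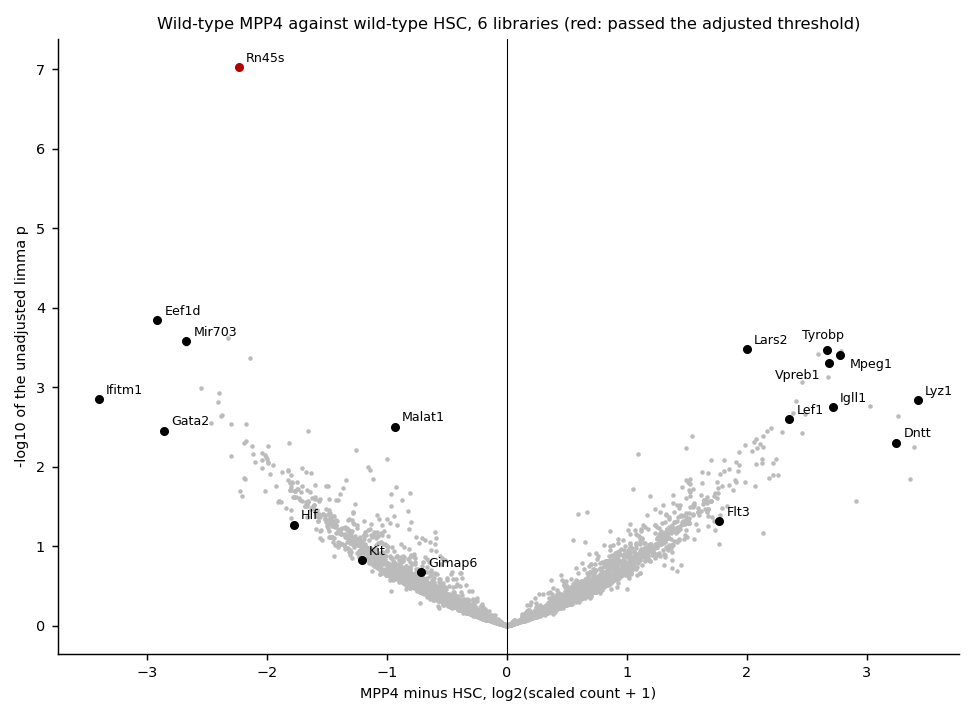
Each grey point is 1 of 5571 genes: the difference MPP4 minus HSC in log2(scaled count + 1) over 6 wild-type libraries (x axis) against −log10 of the unadjusted limma p (y axis). Rn45s (red) is the only gene past the adjusted threshold; 17 other labelled genes (black) are described in the text.

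The summed stem cell genes were higher in HSC replicates 1 and 2 than in any MPP4 library, and Ifitm1, Gata2, Angpt1 and Hlf had this order too. Ifitm1 held 1031, 997 and 0 CPM in HSC and 0 in every library of MPP4. Its 65 HSC counts against 0 put it at least 21.6-fold higher in HSC over the pooled libraries, all of them from replicates 1 and 2. Ifitm1 did not pass in 6 libraries (-3.40, SE 0.94, limma adjusted p = 0.434). Without both replicates 3 it fell by 5.10 on the log2 scale from HSC to MPP4 (SE 0.46, limma adjusted p = 0.041; edgeR adjusted p = 0.0403). That fit of 4 libraries called 2 of 5686 genes (0.0352%) with limma, Ifitm1 and Dntt, and edgeR called Ifitm1 and Vpreb1, 2 of 636 (0.314%). HSC replicate 3 was left out partly for its 0 counts of Ifitm1, so these calls lend Ifitm1 no separate support.

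Gata2, a zinc finger factor required for stem cell maintenance, held 688, 456 and 0 CPM in HSC and 0 in every library of MPP4. It was at least 11.97-fold higher in the HSC libraries pooled. Hlf, a bZIP transcription factor that marks long-term stem cells, held 997, 484 and 0 CPM in HSC and 26.1, 52.4 and 55.4 CPM in MPP4. Its 6-library difference of -1.77 (SE 0.87) became -3.41 without both replicates 3 (limma adjusted p = 0.864 and 0.204). Angpt1, which encodes the Tie2 ligand angiopoietin-1, held 653, 855 and 0 CPM in HSC and 78.3, 26.2 and 0 CPM in MPP4. For each of these genes HSC replicate 3 was at 0 and the populations overlapped only through it. Gpr56 (Adgrg1), an adhesion receptor, held 1306, 1054 and 65.4 CPM in HSC and 313, 288 and 111 CPM in MPP4, so its HSC replicate 3 fell below every MPP4 library. Ctla2a, a cysteine protease inhibitor, held 791, 541 and 65.4 CPM in HSC and 261, 157 and 55.4 CPM in MPP4.

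Of the 30 stem cell genes, all were in the tables, 28 had a count in the 6 libraries and 17 passed the filter of 1 scaled count on average. Among those tested, 15 had the higher mean log level in HSC and 2 in MPP4, with a median difference of -1.40; over all genes tested the split was 2883 to 2688 and the median −0.04. The filter admits genes that are high in 1 population only, so these counts, here and for the other lists, describe the list. With replicates 1 and 2 alone, 20 of 21 tested members were higher in HSC, and the median was -1.98 against 0.06 over all genes. In 20 of the 21 both HSC libraries lay above both MPP4 libraries, which 22.0% of all genes tested did (the libraries had been chosen by these genes). The exception was Hoxa9, a homeobox gene, with 0, 28.5 and 0 CPM in HSC and 157, 26.2 and 0 CPM in MPP4. In HSC replicate 1 the count was 0 for 7 of the 30 members, and in HSC replicate 3 for 21. Procr, Fgd5, Esam and Hoxb5, used elsewhere to mark stem cells, reached at most 3 counts in any of the 6 libraries. Mllt3, a chromatin reader of the super elongation complex, was higher in every HSC library than in MPP4, with 275, 484 and 65.4 CPM in HSC and 52.2, 52.4 and 55.4 CPM in MPP4. The margin of HSC replicate 3 is near the floor, since 1 count was worth 32.7 CPM in it and 26.1, 26.2 and 55.4 CPM in MPP4. Of the 17 stem cell genes tested, 2 separated all 6 libraries in the direction of HSC, and 7.07% of all genes tested did.

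Megakaryocyte genes were also higher in HSC replicates 1 and 2 than in MPP4. Itga2b, the platelet integrin CD41, held 413, 56.99 and 0 CPM in HSC and 0 in every library of MPP4. Nrgn, a calmodulin-binding protein of platelets, held 378, 228 and 523 CPM in HSC and 287, 105 and 0 CPM in MPP4, and HSC replicate 3 was its highest library. The whole list summed to 2509.8, 1510.2 and 523 CPM in HSC and 444, 209.7 and 222 CPM in MPP4. Unlike the stem cell sum, that of HSC replicate 3 lay above every MPP4 library, through Nrgn alone, with 13 of 14 members at 0. Wild-type common myeloid progenitors held 2118, 1782 and 1570 CPM of the list, and 4201, 3301 and 3481 CPM of the stem cell genes. All 6 members tested were higher in HSC (median -1.47, and -2.09 over 7 members without both replicates 3). The filter can admit a member through HSC alone, so this direction describes the list. In 0 of the 6 did all HSC libraries lie above all MPP4 libraries, as 7.07% of all genes tested did. This list and the stem cell list share members, Itga2b and Vwf among them. Pf4, platelet factor 4, had 5 counts in HSC replicates 1 and 2 together and 0 in MPP4, below the filter.

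The surface proteins of the sort were thinly counted. Kit, the receptor for stem cell factor, held 688, 342 and 32.7 CPM in HSC and 209, 157 and 0 CPM in MPP4. Flt3, the receptor that defines MPP4, held 34.4, 0 and 0 CPM in HSC and 548, 105 and 0 CPM in MPP4. The 25 Flt3 counts of MPP4 came from replicates 1 and 2, and the difference of 1.77 (SE 0.85) had a limma adjusted p of 0.85. Flt3 was not called without MPP4 replicate 3 (2.84, limma adjusted p = 0.481) or without both replicates 3 (2.65, limma adjusted p = 0.4). Cd34, gated as positive in MPP4 alone, held 103, 56.99 and 0 CPM in HSC and 287, 26.2 and 0 CPM in MPP4. Cd48, likewise positive only in the MPP4 gate, held 0, 171 and 98.1 CPM in HSC and 104, 131 and 333 CPM in MPP4. Ly6a, which encodes Sca-1 and was gated as positive in both, held 241, 228 and 32.7 and 78.3, 184 and 222 CPM. Il7r, the interleukin-7 receptor, which was gated only for later progenitors, held 0, 171 and 393 CPM in HSC and 392, 236 and 0 CPM in MPP4. Slamf1 (CD150) had 3 counts in all, 2 of them in HSC, Fcgr3 had 1 and Fcgr2b 0. None of the 6 surface genes tested separated the populations in all 6 libraries, and Ly6a, Cd34 and Il7r changed sign when a library was left out.

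Genes of the surrogate light chain and of lymphoid priming were higher in MPP4 than in HSC replicates 1 and 2. Vpreb1 held 34.4, 28.5 and 458 CPM in HSC and 940.1, 1049 and 443 CPM in MPP4. HSC replicate 3 lay above the lowest MPP4 library, and the difference of 2.68 (SE 0.67) had a limma adjusted p of 0.231 over 6 libraries. Without both replicates 3 it was 4.05 (SE 0.42, limma adjusted p = 0.0537), and edgeR called it (adjusted p = 0.0403). Igll1, the λ5 component, held 0, 0 and 425 CPM in HSC and 470, 472 and 443 CPM in MPP4. The groups of Igll1 did not overlap, although HSC replicate 3 (13 counts) and MPP4 replicate 3 (8 counts) lay side by side. Leaving out HSC replicate 3 alone brought Vpreb1 (3.68, limma adjusted p = 0.0253) and Igll1 (4.01, limma adjusted p = 0.0253) past the threshold, together with Ifitm1 and Gata2. That library was set aside partly for its stem cell and early B genes, so calls made without it lend these genes no separate support.

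In the other populations of the MPP4 pool, Vpreb1 reached at most 443 CPM in MPP2 and 362 CPM in MPP3, and Igll1 at most 96.8 and 362 CPM, in libraries of 2764 to 20839 counts. The highest MPP3 value is 1 count of each gene in the library of 2764. Common myeloid progenitors (CMP), sequenced in another pool, held at most 13.2 CPM of Vpreb1 and no count of Igll1. Vpreb3, a relative of Vpreb1 that binds the light chain during assembly, held 0, 313 and 1407 CPM in HSC and 888, 1206 and 942 CPM in MPP4, with its highest value in HSC replicate 3. Blnk, an adaptor of pre-B receptor signalling, held 0, 114 and 327 CPM in HSC and 444, 524 and 388 CPM in MPP4 without overlap. Cd79a, the Igα signalling chain, was highest in HSC replicate 3, with 0, 142 and 1178 CPM in HSC and 183, 184 and 443 CPM in MPP4. Pax5, the factor of B lineage commitment, had 1 count in the 6 libraries.

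Of the 18 pre-B receptor and early B lineage genes, 15 were tested, of which 14 were higher in MPP4 (median 1.51). In 5 of them the 3 MPP4 libraries lay above the 3 HSC libraries, whereas 4.88% of all genes tested did so in this direction and 7.07% in the other. The member that was higher in HSC was Erg, an Ets factor of stem cells, with 6 counts in all. With replicates 1 and 2 alone, 14 of 15 were higher in MPP4 (median 1.64). The summed level of the list was 481, 1881 and 6412 CPM in HSC and 7599, 6502 and 5155 CPM in MPP4. In wild-type MPP2, of the MPP4 pool, it was 4162, 5187 and 6729 CPM, which overlaps MPP4. In wild-type MPP3 it was 2601, 3256 and 1008 CPM.

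Dntt was found almost only in the 2 deeper MPP4 libraries. It held 0, 0 and 98.1 CPM in HSC and 2846, 1127 and 0 CPM in MPP4, so that 152 of its 155 counts came from MPP4 replicates 1 and 2. Over 6 libraries the difference was 3.24 (SE 1.05, limma adjusted p = 0.601). Without both replicates 3, Dntt rose by 5.90 on the log2 scale (SE 0.55, limma adjusted p = 0.041), and without MPP4 replicate 3 alone by 5.21 (limma adjusted p = 0.0077). MPP4 replicate 3 was left out partly for its 0 counts of Dntt, so both p values lend Dntt no separate support. Malat1, a nuclear long noncoding RNA, was called as lower in MPP4 in the fit without MPP4 replicate 3 alone (-1.35, limma adjusted p = 0.0077). Malat1 held 18428, 16556 and 14328 CPM in HSC and 6293, 6476 and 15355 CPM in MPP4, and MPP4 replicate 3 was at the HSC level.

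Lef1, a Wnt-responsive factor of early B and T cells (chr3:131110471-131224356 in GRCm38, plus strand), held 0, 0 and 131 CPM in HSC and 339, 184 and 222 CPM in MPP4. The 3 MPP4 libraries lay above HSC replicate 3 (difference 2.35, SE 0.70, limma adjusted p = 0.508), and without both replicates 3 the difference was 3.21 (limma adjusted p = 0.269). Satb1, a chromatin organiser of lymphoid progenitors, held 103, 28.5 and 131 CPM in HSC and 522, 157 and 277 CPM in MPP4, also without overlap. Cd52, a short glycoprotein of lymphocytes, held 0, 285 and 622 CPM in HSC and 339, 813 and 1219.5 CPM in MPP4, overlapping through HSC replicate 3. Rag1 and Rag2 encode the enzyme that cuts the receptor genes. Rag1 had 5 counts in HSC and 14 in MPP4, and Rag2 had 0 and 6, with counts of both in every MPP4 library. Sox4, a factor of early lymphoid cells, had its highest and its lowest library within MPP4, with 619, 399 and 785 CPM in HSC and 1227, 262 and 0 CPM in MPP4. Of 30 lymphoid priming genes, 27 were tested, 22 were higher in MPP4 (median 0.96) and 6 separated all 6 libraries in that direction, as did 4.88% of all genes tested. With replicates 1 and 2 alone, 24 of 26 were higher in MPP4 (median 1.52). The list summed to 2854, 2906 and 4874 CPM in HSC and 11908, 6004 and 4545 CPM in MPP4. Wild-type MPP2 (5324, 5430 and 8322 CPM) and MPP3 (5203, 9407 and 4895 CPM) overlapped MPP4. Dntt, Lef1, Ebf1, Rag1 and Rag2 belong to this list and to the B lineage list.

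**Figure D3:**
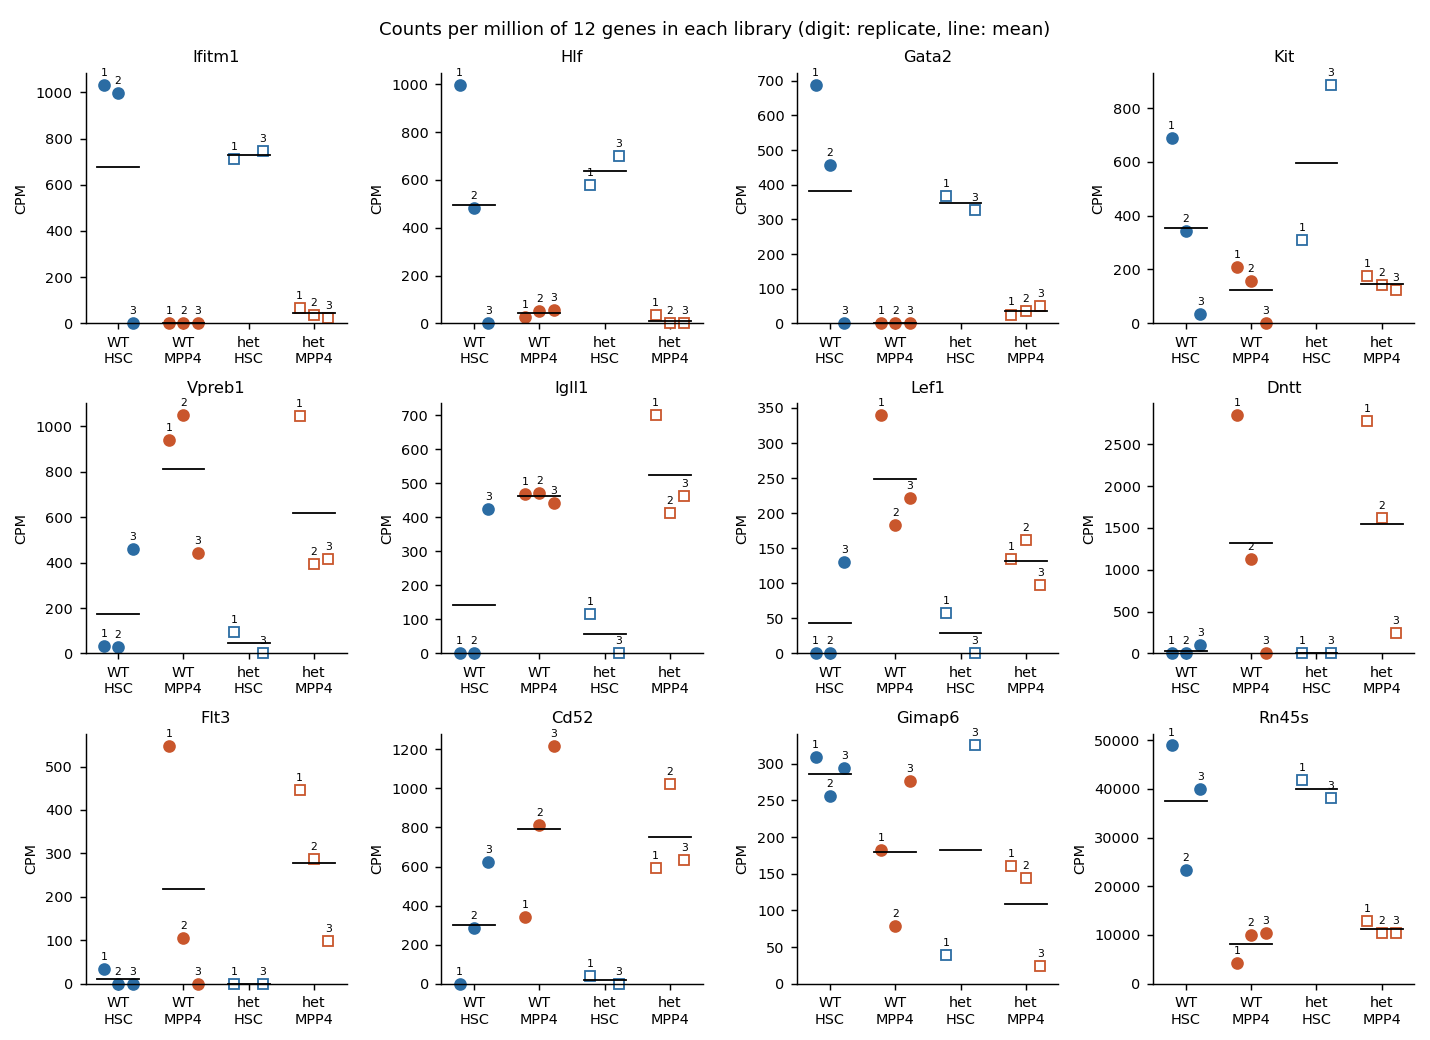
CPM of 12 genes (y axes, linear from 0) in WT (filled circles) and Mof heterozygous (het, open squares) libraries of HSC (blue) and MPP4 (orange); digits are replicate numbers, lines are means, and heterozygous HSC replicate 2 is not drawn. Ifitm1, Hlf and Gata2 are high in WT HSC replicates 1 and 2 and at 0 in replicate 3, whereas Vpreb1, Igll1 and Lef1 in that replicate lie near MPP4.

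Gimap6 belongs to a family of immune-associated GTPases that support lymphocyte survival and lie together on chromosome 6. Gimap6 (chr6:48701582-48708225 in GRCm38, minus strand) held 309, 256 and 294 CPM in HSC and 183, 78.7 and 277 CPM in MPP4, that is 287 ± 27.3 against 179.5 ± 99.3 CPM (SD, n = 3). The populations overlapped, since the highest MPP4 library lay above the lowest HSC library, and the difference of -0.72 (SE 0.56, 95% interval -1.87 to 0.44, limma adjusted p = 0.903) was within the spread. Without both replicates 3 it was -1.03 (limma adjusted p = 0.491). Gimap6 had no count in the 3 MPP2 and 3 MPP3 libraries, which are shallow, and at most 26.2 CPM in CMP. Gimap1 held 516, 228 and 523 CPM in HSC and 183, 52.4 and 277 CPM in MPP4. Gimap4 held 0, 114 and 294 CPM in HSC and 26.1, 0 and 0 CPM in MPP4. All 8 Gimap genes were tested, 6 were higher in HSC and 2 (Gimap7 and Gimap9) in MPP4, with a median of -0.45 (-0.83 over 7 members without both replicates 3). Gimap5 was the 1 member of 8 whose HSC libraries all lay above MPP4, with 68.8, 85.5 and 65.4 against 52.2, 0 and 0 CPM and 9 counts in all. Over all genes tested 7.07% did so, and 1 count was worth 32.7 CPM in HSC replicate 3. Unlike the stem cell genes, the summed family was highest in HSC replicate 3 (1066, 883 and 1374 CPM in HSC, 705, 236 and 887 CPM in MPP4).

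Apart from Rn45s, 9 genes were named by the rule of at least 20 counts, no overlap and the smallest limma p in the direction of HSC. The rule asks HSC replicate 3 to exceed every MPP4 library, so most stem cell genes, at 0 in that library, could not be named by it. Eef1d, a subunit of the translation elongation factor 1 complex, held 241, 342 and 294 CPM in HSC and 0, 52.4 and 0 CPM in MPP4. Mir703, an annotated microRNA locus, held 309, 256 and 229 and 26.1, 26.2 and 0 CPM. Grcc10 held 275, 199 and 327 and 26.1, 26.2 and 0 CPM. Ltb, the membrane cytokine lymphotoxin β, held 378, 114 and 229 CPM in HSC and 0, 52.4 and 0 CPM in MPP4. The same rule named the ribosomal protein gene Rpl37 (791, 456 and 523 against 235, 157 and 111 CPM), 2700054A10Rik, Gm10653, and the pair Gm17821 and A630089N07Rik. Gm17821, an annotated pseudogene whose reads can be shared with a parent gene, held 1238, 1225 and 6379 CPM in HSC and 209, 498 and 609.8 CPM in MPP4. A630089N07Rik held 1169, 1311 and 6608 against 339, 419 and 721 CPM, and both were highest in HSC replicate 3. In the heterozygous libraries the difference for Eef1d was -0.02, for Mir703 -0.58 and for Ltb 0.32, against -2.91, -2.67 and -2.55 in wild type; none passed limma in either set. Without both wild-type replicates 3 they were -2.66, -2.46 and -2.27.

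Of the 118 genes that met the same rule in the direction of MPP4, the 10 of smallest p were named, and several of these are carried by myeloid cells. Tyrobp, an adaptor of activating receptors of myeloid and NK cells, held 0, 28.5 and 32.7 CPM in HSC and 157, 341 and 388 CPM in MPP4. Mpeg1, the pore-forming perforin-2 of macrophages, had no count in HSC and held 157, 315 and 111 CPM in MPP4, at least 6.69-fold higher over the pooled libraries. Emb, the adhesion protein embigin, held 34.4, 0 and 32.7 CPM in HSC and 339, 209.7 and 277 CPM in MPP4. Gsn, the actin-severing protein gelsolin, held 0, 0 and 65.4 CPM in HSC and 183, 288 and 166 CPM in MPP4. Lars2, the mitochondrial leucyl-tRNA synthetase, held 894, 427 and 294 CPM in HSC and 992, 2805 and 2993 CPM in MPP4. The remaining names were Igll1 and the genes Cat (catalase), Ncf1 (a subunit of the phagocyte oxidase), S100a6 and Lgals3. The limma adjusted p of these 10 genes ran from 0.216 to 0.478. Without both replicates 3 the difference was 2.64 for Tyrobp, 3.06 for Mpeg1 and 1.39 for Lars2, none of them called. Tyrobp, Lars2, Cat, S100a6, Ncf1 and Lgals3 were highest in MPP4 replicate 3, the library with neutrophil transcripts, whereas Mpeg1 and Gsn were highest in replicate 2 and Emb in replicate 1.

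Transcripts used as markers of mature cells, which the gates leave out, were present and uneven, and their source was not tested. The 14 mature B cell genes in the tables summed to 34.4, 598 and 5430.3 CPM in HSC and 522, 2832 and 8370.3 CPM in MPP4, led by class II genes and Cd74. H2-Aa, a class II chain, held 0, 114 and 654 CPM in HSC and 0, 734 and 2439 CPM in MPP4. Ms4a1, which encodes the B cell surface protein CD20, held 0, 0 and 393 CPM in HSC and 26.1, 157 and 222 CPM in MPP4. Of the 14 genes, 13, 5 and 1 were at 0 in HSC replicates 1 to 3, and 8, 1 and 3 in MPP4. The list had 166 counts in HSC replicate 3 and 20 in MPP4 replicate 1, and both libraries held Vpreb1 and Igll1. The part of B cells, mature or earlier, in the Vpreb1, Igll1 and Blnk values was not tested.

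Neutrophil granule transcripts came mostly from 1 of the 6 libraries. S100a8, a subunit of calprotectin, was at 0 in every library of HSC and held 0, 52.4 and 12029 CPM in MPP4. Its partner S100a9 held 0, 0 and 32.7 CPM in HSC and 0, 52.4 and 9812 CPM in MPP4, and reached 5711 CPM in MPP2 and 7941 CPM in MPP3 of the same pool. Camp, a granule peptide precursor, held 26.1, 52.4 and 6929 CPM in MPP4. Of the 13 mature neutrophil genes in the tables, 2 were at 0 in MPP4 replicate 3, against 11 and 6 in the other 2 MPP4 libraries and 11 to 12 in HSC. Cxcr2, a chemokine receptor, made up nearly all of the list in HSC, with 481, 513 and 425 CPM. Lyz1 and Chi3l3 (Chil3, a neutrophil and macrophage lectin) passed limma once MPP4 replicate 1 was left out (5.20 and 4.89, adjusted p = 0.00142 and 0.00747). Lyz1 held 103, 28.5 and 0 CPM in HSC and 26.1, 1914 and 2661 CPM in MPP4, so replicate 2 carried it too. Lyz2, the macrophage lysozyme, had 0 counts in HSC and 14 in MPP4 replicates 2 and 3. The 14 macrophage and dendritic cell genes summed to 447, 456 and 294 CPM in HSC and 392, 891 and 1053 CPM in MPP4, with 6 to 11 of them at 0 in each library and C1qa and C1qb at 0 in all. MPP4 replicate 1, with Lyz2 at 0, held 157 CPM of Mpeg1 and the same of Tyrobp. That library held 15 counts of the macrophage and dendritic cell genes, and the part of such cells in the Mpeg1 and Tyrobp values was not tested.

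Globin was spread over both populations. Beta-s held 6945, 34108 and 25582 CPM in HSC and 339, 25353 and 145177 CPM in MPP4, a difference of -0.72 (SE 1.11, limma adjusted p = 0.944). Scaling to totals without Rn45s and globin genes kept Rn45s as the 1 call of 5806 genes. The 13 T and NK cell genes summed to 68.8, 912 and 1407 CPM in HSC and 157, 105 and 1885 CPM in MPP4, and Cd8a and Gzma were at 0 in all 6. Ccl5, a chemokine of these cells, held 0, 256 and 654 CPM in HSC and 0, 0 and 831 CPM in MPP4. The 18 myeloid progenitor genes summed to 1513, 1909 and 1374 CPM in HSC and 1932, 3067 and 3271 CPM in MPP4. Mpo and Elane, the primary granule genes that define this list, had 3 and 1 counts in the 6 libraries.

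Summed cell cycle genes were higher in MPP4 replicates 1 and 2 than in HSC replicates 1 and 2, while HSC replicate 3 lay high and MPP4 replicate 3 was the lowest library of all. DNA replication genes summed to 791, 3134 and 5070.5 CPM in HSC and 7364, 8232 and 388 CPM in MPP4. Pcna, the replication clamp, held 138, 598 and 1079.5 CPM in HSC and 1488, 1914 and 55.4 CPM in MPP4. Mitosis genes summed to 2613, 9745 and 12169 CPM in HSC and 10054, 13738 and 1330.4 CPM in MPP4. Mki67, the proliferation antigen Ki-67, held 172, 1653 and 1799 CPM in HSC and 627, 1547 and 111 CPM in MPP4. Over 6 libraries, 16 of 21 replication genes and 8 of 24 mitosis genes were higher in MPP4 (medians 0.53 and -0.14). With replicates 1 and 2 alone, each of the 23 replication and 25 mitosis genes tested was (medians 1.79 and 1.08, against 0.06 over all genes). In that set 20.5% of genes tested did not overlap between the populations in the direction of MPP4, against 18 of 23 replication genes and 12 of 25 mitosis genes. Both replicates 3, left out after the data were seen, went against this order. The values without them are a description and lend the order no separate support. None of these genes passed limma or edgeR in wild type, with or without those libraries.

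Immediate early genes, which respond within minutes to stimuli including cell handling, pointed the other way. The list summed to 9455, 7437 and 5103 CPM in HSC and 3629.7, 4247 and 6208 CPM in MPP4. High sums were not particular to HSC, since wild-type MPP2 held 3388, 6240 and 12926 CPM and wild-type MPP3 7941, 12663 and 10797 CPM. Jund, an AP-1 subunit, separated the populations in all 6 libraries, with 1238, 1054 and 1210.4 CPM in HSC and 392, 498 and 721 CPM in MPP4. Jun held 1788, 1054 and 1079.5 CPM in HSC and 653, 655 and 942 CPM in MPP4, and Fos 1272, 1197 and 491 and 366, 367 and 665 CPM. Egr1, a zinc finger factor associated with stem cell quiescence, held 859.5, 256 and 0 CPM in HSC and 0, 52.4 and 0 CPM in MPP4. Of 17 tested, 11 were higher in HSC (median -0.75, and -1.04 without both replicates 3), and 3 (Jun, Jund and Zfp36) separated all 6 libraries in that direction, as 7.07% of all genes did.

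Among housekeeping groups, cytosolic ribosomal protein genes took 179880, 156266 and 151820 CPM in HSC and 173547, 145273 and 105377 CPM in MPP4. Of 79 tested, 58 were higher in HSC (median -0.34, and -0.17 without both replicates 3), 27 of them without overlap, against 7.07% of all genes tested. Rps20 and Rpl4 were the 2 members that separated in the direction of MPP4 (4.88% of all genes), and Rps20 held 3129, 3191 and 2781 CPM in HSC and 5979.9, 5217 and 3603 CPM in MPP4. Rps9, the member with the most counts, held 5569.7, 4616 and 4187 and 5719, 4090 and 3714 CPM and overlapped. Respiratory chain genes split 43 to 30 (median -0.08) in 6 libraries and 24 to 50 (median 0.35) without both replicates 3, HSC first in each pair. Glycolysis genes split 5 to 6 and interferon response and class I genes 9 to 9, both with medians within 0.01 of 0. B2m, the class I light chain, held 2854, 2878 and 3075 CPM in HSC and 2455, 2464 and 2273 CPM in MPP4. Cytokine signalling inhibitors were higher in HSC in 7 of 9 tested members (median -0.81).

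**Figure D4:**
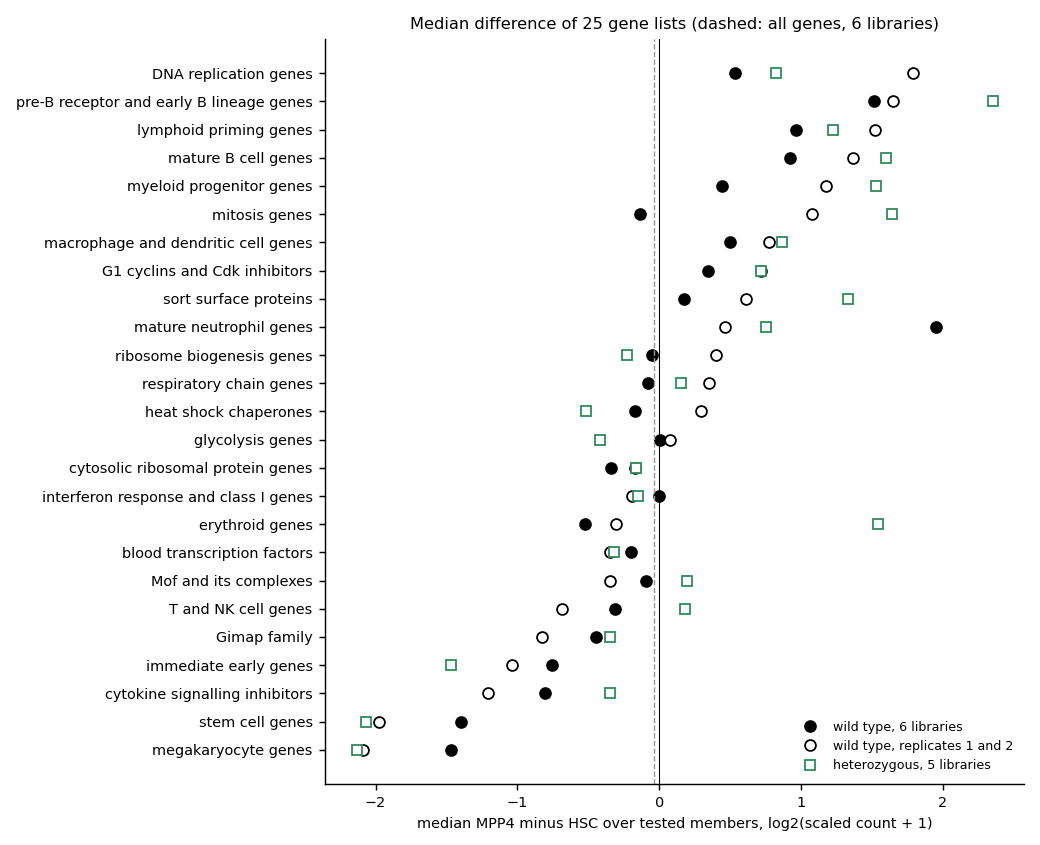
Median difference MPP4 minus HSC over the tested members of 25 gene lists (x axis, log2(scaled count + 1)), for 6 wild-type libraries (filled circles), wild-type replicates 1 and 2 (open circles) and 5 heterozygous libraries (squares). Stem cell and megakaryocyte genes lie at −1.40 and −1.47 in wild type, and the mitosis list moves from −0.14 to 1.08 without both replicates 3.

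The same contrast was then read in the Mof heterozygous libraries, which share no library with the wild type. In all 6 libraries limma called 3 of 5433 genes (0.0552%), Rn45s, Beta-s and Dntt, and edgeR 36 of 713. Heterozygous HSC replicate 2 held only 1577 counts, and leaving it out leaves 2 HSC libraries (51873 and 21466 counts) against 3 MPP4 libraries (118600, 55722 and 41002), the set used from here on. In these 5 libraries limma called 38 of 5803 genes, 24 higher in MPP4 (0.414%) and 14 higher in HSC (0.241%). EdgeR called 10 of 1118, among them Ifitm1, Hlf, Pf4, Egr1 and Rn45s as lower in MPP4 and, as higher, only Cd52, Tuba1b and Tubb5. The limma calls given below for Gata2, Angpt1, Trim47, Dntt, Vpreb1, Igll1, Flt3, Satb1, Cd79a, Blnk and the cell cycle genes other than Tuba1b were not made by edgeR in these 5 libraries. With all 6 libraries, edgeR did call Angpt1, Dntt, Vpreb1, Igll1, Cd79a, Blnk, Top2a and Mki67. It did not call Gata2, Trim47, Flt3, Satb1, Hlf, Pf4 or the other cell cycle genes named below except Tuba1b. Heterozygous MPP4 replicate 3 held 100215 CPM of the globin entry Beta-s. Ifitm1 held 713 and 745 CPM in HSC against 67.5, 35.9 and 24.4 CPM in MPP4, and fell by 3.42 on the log2 scale from HSC to MPP4 (SE 0.48, limma adjusted p = 0.0023). Hlf held 578 and 699 CPM against 33.7, 0 and 0 CPM, and fell by 4.09 (limma adjusted p = 0.0023). Gata2 (-2.50), Angpt1 (-2.87) and Trim47 (-2.91) of the stem cell list were also called, 5 of 19 tested, and 2 of 9 megakaryocyte genes tested were, Pf4 (-3.95) among them.

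Dntt had no count in either heterozygous HSC library and held 2774, 1615 and 244 CPM in MPP4, a rise of 5.15 (SE 0.71, limma adjusted p = 0.0023). Vpreb1 rose by 3.24 and Igll1 by 3.02 from HSC to MPP4 (limma adjusted p = 0.0189 and 0.023). Flt3, at 0 in both HSC libraries, held 447, 287 and 97.6 CPM in MPP4 and rose by 3.14 (limma adjusted p = 0.0197). Cd52 (4.05) and Satb1 (3.45) rose as well, as did Cd79a (3.41) and Blnk (2.71). In all, 5 of 26 lymphoid priming genes and 5 of 14 B lineage genes tested were called as higher in MPP4, Dntt in both. The median differences over the tested members were 1.22 and 2.35. In the heterozygous HSC libraries mature B cell genes summed to 1214 and 139.8 CPM, and in MPP4 to 936, 4558 and 2146 CPM. Lef1 held 57.8 and 0 CPM in HSC against 135, 162 and 97.6 CPM in MPP4 and did not pass (1.62, limma adjusted p = 0.285). Gimap6 held 38.6 and 326 CPM in HSC against 160.2, 144 and 24.4 CPM in MPP4, and the populations overlapped. The mitosis genes Top2a (3.61), Mki67 (2.65), Cdk1, Tuba1b and Ube2c were called as higher in MPP4, 5 of 24 tested. So were the replication genes Rrm2 and Tk1, 2 of 22. The median differences were 1.64 over the mitosis and 0.82 over the replication genes tested. Of 4790 genes tested in both genotypes, 55.9% had the same sign of difference, and of 4828 tested with wild-type replicates 1 and 2 alone, 57.9%. Both shares lie little above an even split of same and opposite signs. The difference of the contrast between genotypes was tested as an interaction, which limma called for 3 of 5644 genes (0.0532%) in 12 libraries and for 0 of 5732 without heterozygous HSC replicate 2 (251 at an unadjusted p under 0.05). None of the stem cell, lymphoid priming or B lineage genes was among the 3.

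**Figure D5:**
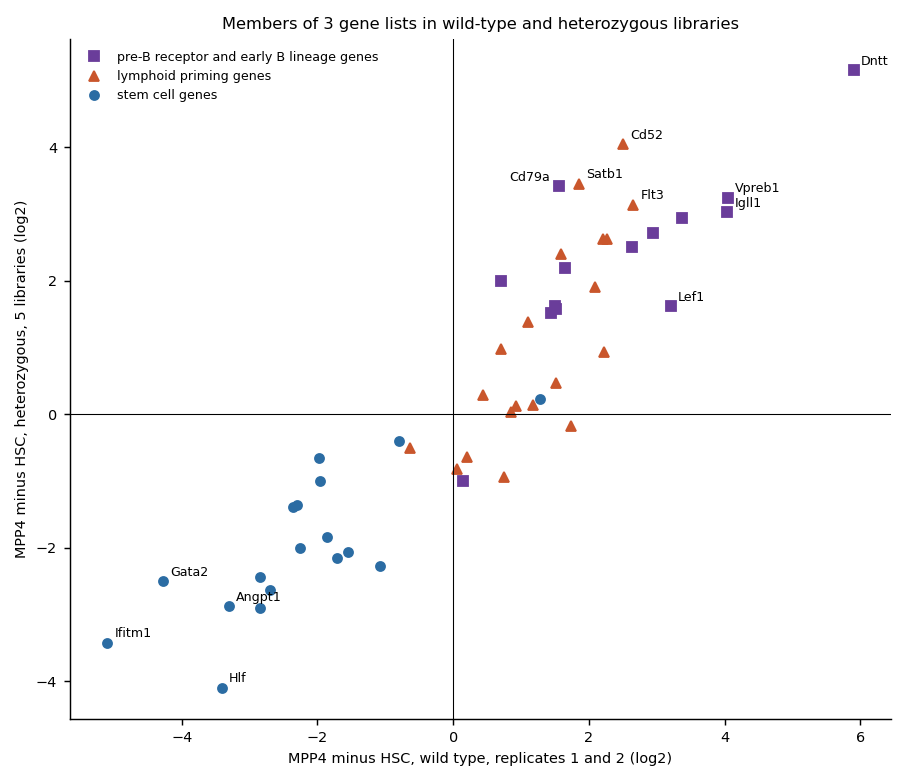
Difference MPP4 minus HSC (log2) of members of 3 gene lists in wild-type replicates 1 and 2 (x axis) and in 5 heterozygous libraries (y axis); genes in 2 lists are drawn in the B lineage list. Ifitm1, Hlf, Gata2 and Angpt1 lie low on both axes, and Dntt, Vpreb1 and Igll1 high on both.

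A fit that averaged the contrast over both genotypes was added after the single-genotype results had been seen. In these 11 libraries limma called 45 of 5732 genes, 23 higher in MPP4 (0.401%) and 22 higher in HSC (0.384%). Rn45s had the smallest p (difference -2.03, SE 0.21, adjusted p = 2.79e-06). Of 18 stem cell genes tested 5 were called, all lower in MPP4: Ifitm1 (-3.41), Hlf (-2.93), Gata2 (-2.68), Trim47 (-2.40) and Itga2b (-2.21). Of 25 lymphoid priming genes 6 were called, each higher in MPP4, among them Dntt (4.20), Cd52 (3.02), Satb1 (2.50), Flt3 (2.46) and Lef1 (1.99). Vpreb1 (2.96), Igll1 (2.87) and Blnk (2.38) of the B lineage list were called too, as were Mpeg1 (2.82), Tyrobp (2.53) and Emb (2.25). EdgeR called 9 of 1056, among them Rn45s, Ifitm1, Hlf, Dntt, Satb1, Mpeg1 and Emb, and none of the others named here. Gimap6 was not called by limma (-0.54, adjusted p = 0.749).

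Further genes called in that fit were chosen here after their values were seen. Plxnc1, a semaphorin receptor, held 172, 142 and 65.4 CPM in wild-type HSC and 0 in every library of MPP4, and 231 and 512 CPM in heterozygous HSC against 42.2, 17.9 and 24.4 CPM in MPP4. Itga6, the integrin α6 chain, held 206, 142 and 65.4 CPM in wild-type HSC and 0 in every library of MPP4. Both had 2 counts in HSC replicate 3, in which Ifitm1, Hlf and Gata2 had none. H2-Ob, a regulator of class II loading, held 0, 0 and 131 CPM in wild-type HSC and 339, 78.7 and 277 CPM in MPP4. Apoe, apolipoprotein E, held 309, 285 and 65.4 CPM in HSC and 0, 0 and 111 CPM in MPP4, and Igf1r, the insulin-like growth factor receptor, 688, 456 and 164 and 104, 184 and 166 CPM. Leaving out both wild-type replicates 3 raised the count to 154 genes, among them all 45. Leaving out heterozygous HSC replicate 3, which leaves 1 heterozygous HSC library, gave Rn45s alone, and leaving out wild-type HSC replicate 1 or 2 gave 19 or 13 genes.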

How the data were processed

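Bone marrow populations had been sorted and sequenced by CEL-Seq2 in pools, per the labels. The authors deposited 1 table per population and genotype with a normalised signal per gene, and the population of each table was taken from its name. The submitters' processing notes name BWA 0.6.2-r126, an aligner, and the build mm10. How reads were counted, on which annotation and with what collapse of molecular identifiers was not given in the sources used here. Each deposited signal column was divided by its smallest positive value, which gave whole counts for 100% of values (tolerance 0.01). The tables held 23538 genes, and spike-in rows were dropped. Counts were scaled to a common total of 32831.5, and log2(scaled count + 1) was tested with limma 3.58.1 (R 4.3.3) over genes with a mean scaled count of at least 1, Benjamini-Hochberg adjusted at 0.05. A fold difference on this scale understates that of low genes. EdgeR 4.0.16 (quasi-likelihood) and DESeq2 1.42.0 on the recovered counts, other scalings, pseudocounts and filters, thinning and left-out libraries were alternatives, and the scripts were tested on simulated data.

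Genes named are Gimap6, Vpreb1, Igll1 and Lef1, the sorted surface proteins, up to 10 per direction with the smallest p among genes with 20 counts whose libraries did not overlap, up to 4 of each list with the most counts, and called genes; other examples were chosen after their values were seen. The members and lists were chosen with earlier results of these data known. Motifs were searched in RefSeq promoter windows of GRCm38.p6. Tables of wild-type MEP and of heterozygous CMP, MEP, MPP2 and MPP3 were not used here, and a few named genes are not reported here.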

Additional observations from a re-analysis of the deposited data

Results flagged for a closer look

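In 3 genes the difference between HSC and MPP4 differed between genotypes by the interaction term of limma in 12 libraries, as the heterozygous minus the wild-type difference on the log2 scale. The value for the globin entry Beta-s was 7.43 (SE 0.86, adjusted p = 2.72e-14). Beta-s held 0, 634 and 0 CPM in heterozygous HSC and 7631, 897 and 100215 CPM in heterozygous MPP4, against 6945, 34108 and 25582 and 339, 25353 and 145177 CPM in the wild type. The value for Camp was -5.55 (adjusted p = 0.000316), with 26.1, 52.4 and 6929 CPM in wild-type MPP4 and 0 in every library of heterozygous MPP4. The value for S100a9 was -5.34 (adjusted p = 0.00101), with 0, 52.4 and 9812 CPM in wild-type MPP4 and 0 in every library of heterozygous MPP4. Heterozygous HSC replicate 2 gave 634 CPM of each of the 3 genes, which is 1 count in 1577. Without it limma called 0 genes, as did edgeR on 12 libraries. With 3 libraries a group, no library was tested as an outlier.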

How the results depend on the processing

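Of the 12 alternatives for the 6 wild-type libraries that kept all of them, limma's 1 call, Rn45s, stood with either other pseudocount, with TMM or RLE scaling, with totals without Rn45s and globin genes, with thinning to 18040 counts, with a spread from 15 libraries and by DESeq2. A spread from 9 libraries gave 2 calls (Rn45s and Mir703), no filter on low values gave 23 (14 higher in MPP4 and 9 in HSC), and a mean of at least 3 scaled counts gave 0 (131 at an unadjusted p under 0.05), as did edgeR (38). Leaving out 1 wild-type library gave 0 to 4 calls, and leaving out both replicates 3 gave 2 by limma and 2 by edgeR. In the heterozygous libraries the count moved from 3 to 38 without HSC replicate 2, and edgeR gave 36 with it and 10 without it. The interaction moved from 3 to 0 without heterozygous HSC replicate 2, by edgeR, and without it and both wild-type replicates 3. The average over both genotypes, added after seeing the data, moved from 45 to 154 without both wild-type replicates 3 and to 9 by edgeR, and leaving out 1 library gave 1 to 95.

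For the 29 genes followed through 535 alternative values, 504 kept their direction and side of the threshold, 15 passed it anew, 6 no longer passed and 10 changed sign. Those that changed sign were small differences of surface protein genes. Cd34 (0.21) was -0.24 thinned, -0.40 without HSC replicate 3 and -0.77 without MPP4 replicate 1, and leaving out 1 library at most raised it to 0.92. Il7r (0.13) was -0.95 without HSC replicate 1, -0.61 without MPP4 replicate 1, -0.28 without MPP4 replicate 2 and 2.10 without both replicates 3. Ly6a (0.14) was -0.12 by DESeq2, -0.55 without HSC replicate 3, -0.11 without MPP4 replicate 3 and -0.79 without both, and 0.50 at most (without MPP4 replicate 1). The cause of these changes was not tested. No paired analysis was possible because the columns carry no shared replicate numbers. One count is worth 26.1 to 55.4 CPM here, which sets the step in which low genes can differ.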
